A study of Mus musculus with 2 samples.

Results

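The olfactory receptor genes of mouse chromosome 9 were examined as loci thought to be closed in gut epithelium, and so as a gauge of the background in each peak list. They were all protein-coding genes of the mm9 annotation on that chromosome whose symbol is Olfr followed by a number, which gave 127 of the 22380 annotated protein-coding genes and 127 of the 1087 Olfr genes on all chromosomes. The rule used names and positions and no measured value, although it was set when earlier results of these data were known. Another 2 coding genes with pseudogene symbols (Olfr911-ps1 and Olfr1537-ps1) and 6 annotated Olfr pseudogenes on the chromosome were left out. The assay was ATAC-seq, which finds accessible chromatin through the sites where a transposase can insert adapters, and the cells were enteroids, epithelial cultures grown from mouse ileal crypts. The donor mice were 4 months old and of mixed C57Bl6/129sv background. Control enteroids, labelled WT, carried loxP-flanked alleles of Taf4 (Taf4 lox/lox) and no Cre. Taf4-inactivated enteroids, labelled KO, carried the same alleles with VilCreERT2, a tamoxifen-activated Cre recombinase driven by the promoter of the epithelial gene Villin. Taf4 encodes a subunit of TFIID, the general factor that binds core promoters. Both cultures received 1 µM 4-hydroxytamoxifen (4-OHT) for 3 days before the assay. There was 1 library for each genotype, so every difference between the lists describes these 2 libraries, no test between genotypes was possible, and genotype and library cannot be told apart.

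Odorant receptors are G protein-coupled receptors that detect volatile molecules on the cilia of olfactory sensory neurons. Their genes lie in large clusters, most have a coding sequence in 1 exon, and each mature neuron expresses a single allele of a single receptor gene while the remainder are held in compact heterochromatin. In the olfactory epithelium, transcription depends on promoters rich in A and T with sites for homeodomain proteins such as Lhx2 and for the Ebf (O/E) family, and on enhancers dispersed through the clusters. The enzyme Kdm1a and loss of the lamin B receptor Lbr from the nuclear envelope take part in that choice. Gut epithelium is not known to use these genes as a family.

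The DNA under a few peaks near these genes is shown first. They were picked by place or strength, and not all of them were the nearest to a member's start. Every sequence was read from the mm9 (NCBIM37) assembly, 5′ to 3′. Capitals mark matches to the searched motifs, which were TATAAA for the TATA box, TAATTA for homeodomain proteins, TCCC and GGGA with any 2 bases between them for Ebf (O/E), TGANTCA for AP-1, AGATAAG for GATA and CCA, AG and GGC with any 2 bases between each for CTCF, all on both strands. The first sequence is the whole of the single peak within 1 kb of a member's start, found in control enteroids at chr9:39900048-39900304 and printed on the minus strand, the strand of Olfr983, whose coding exon it lies in. The second is the central part of the peak that both lists placed before Olfr18, at chr9:20145526-20145825 on the plus strand. The third is the central part of the strongest peak of the Taf4-inactivated list that was not at another gene's start, at chr9:19574457-19574756 on the plus strand, before Olfr58. The fourth is the whole of the peak nearest to a member's start in the Taf4-inactivated list, at chr9:20039499-20039714 on the plus strand, before Olfr872. The last is the stretch of the strongest peak that runs up to the start of Zfp202, the zinc finger gene beside Olfr986, at chr9:39999724-39999900 on the plus strand, and it is shown as the ordinary promoter against which the other 4 can be read.
Olfr983 peak: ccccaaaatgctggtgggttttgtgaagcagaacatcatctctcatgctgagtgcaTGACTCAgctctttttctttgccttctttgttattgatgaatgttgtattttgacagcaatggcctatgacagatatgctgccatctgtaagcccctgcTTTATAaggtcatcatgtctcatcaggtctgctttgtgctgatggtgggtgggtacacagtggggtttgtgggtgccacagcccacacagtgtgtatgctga
peak before Olfr18: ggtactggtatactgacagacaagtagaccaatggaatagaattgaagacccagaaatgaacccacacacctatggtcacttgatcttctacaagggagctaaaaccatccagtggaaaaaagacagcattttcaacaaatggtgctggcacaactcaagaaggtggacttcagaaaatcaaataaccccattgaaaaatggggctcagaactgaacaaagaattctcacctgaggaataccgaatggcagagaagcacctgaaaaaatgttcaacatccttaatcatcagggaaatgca
peak before Olfr58: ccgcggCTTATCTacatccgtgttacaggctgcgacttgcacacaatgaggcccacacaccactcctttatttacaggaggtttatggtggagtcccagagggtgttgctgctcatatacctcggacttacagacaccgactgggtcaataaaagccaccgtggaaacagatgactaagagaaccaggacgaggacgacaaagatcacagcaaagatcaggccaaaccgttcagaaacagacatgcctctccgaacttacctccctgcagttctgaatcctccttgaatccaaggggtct
peak before Olfr872: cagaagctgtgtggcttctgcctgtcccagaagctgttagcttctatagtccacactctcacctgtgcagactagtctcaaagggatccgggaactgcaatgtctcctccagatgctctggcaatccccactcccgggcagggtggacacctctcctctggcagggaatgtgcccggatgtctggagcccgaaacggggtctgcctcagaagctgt
Zfp202 promoter part: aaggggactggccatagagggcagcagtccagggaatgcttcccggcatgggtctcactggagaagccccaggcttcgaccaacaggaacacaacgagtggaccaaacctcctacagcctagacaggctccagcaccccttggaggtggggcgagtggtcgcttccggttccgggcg

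These 5 stretches differed in composition. The Olfr983 stretch of 257 bp had a GC content of 46.7% and no CpG, the Olfr18 stretch of 300 bp 41.3% and 1 CpG, and the Zfp202 stretch of 177 bp 62.7% and 8 CpGs. The Olfr58 stretch held 11 CpGs in 300 bp at 50.7% GC, and the Olfr872 stretch 5 CpGs in 216 bp at 57.9% GC. The searched letters occurred in the Olfr983 stretch, which held TGACTCA for AP-1 and a TATA box read on its other strand, and in the Olfr58 stretch, which held a GATA match read on the other strand. The other 3 had no match, and a match is only a description of the letters.

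The genes fell into 2 clusters, taken as runs of members whose starts were less than 1 Mb apart. Cluster 1, from Olfr24 to Olfr18, held 35 genes in 1.58 Mb (chromosome 9, 18559100 to 20140538), and cluster 2, from Olfr151 to Olfr986, held 92 genes in 2.48 Mb (37518857 to 39995679). Olfr151 encodes M71, one of the receptors most used in studies of receptor choice. The median distance between neighbouring starts was 26.6 kb, and the median gene length was 951 bp, from 918 to 23752 bp. A single exon was annotated for 101 members and 2 or more for 26. The annotated model began at the coding start in 71 members, so for those the start used here lies at the translation start and the true promoter may lie upstream of it. Gene bodies with 10 kb on each side merged into 81 neighbourhoods of 2.44 Mb in all, and peaks of these neighbourhoods were counted once even where several members shared them.

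The control list held 90445 peaks and the Taf4-inactivated list 71282, a ratio of 1.27, and the background level solved from fold and p gave a depth ratio of 1.65 (control over Taf4-inactivated). Start site peaks were present in both lists for all 8 gut epithelium markers, among them Vil1, Cdx2, Epcam and Lgr5, and for the targeted gene Taf4a and its paralogue Taf4b, although a peak there does not report on the floxed exons. Of 6 markers of olfactory sensory neurons, Gnal, Adcy3 and Gng13 had one in both lists, and Omp, Cnga2 and Stoml3 had none in either. The Gng13 peak was low by fold, at percentile 0.630 of the control list and 7.94 of the Taf4-inactivated list. All 4 neuron markers had one in both lists, as did 3 of 4 muscle and 3 of 4 fibroblast markers, so such peaks were not limited to genes of the gut epithelium. Endothelial markers had one in 2 of 4 in control and 1 of 4 in Taf4-inactivated enteroids, and immune markers in 0 of 4. Over all coding genes, 68.4% in control and 65.5% in Taf4-inactivated enteroids had a start site peak. The marker sets are small, and their counts were not tested against these shares.

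Starts of the Olfr genes were almost free of peaks. In control enteroids 1 of 127 members (0.787%, exact 95% interval 0.0199 to 4.31%) had a peak within 1 kb of its start, against 68.4% of all coding genes. In Taf4-inactivated enteroids 0 of 127 did, with an exact upper bound of 2.86%, against 65.5% of all coding genes. Among coding genes no longer than the longest member the shares were 58.9% and 55.5%, but these genes had a median length of 6489 bp against 951 bp for members, and the part of gene length was not tested. All intervals of shares are Clopper-Pearson intervals at 95% that cover counting error only.

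The 1 member with such a peak was Olfr983 (ENSMUSG00000044205.5, 39899602 to 39901143, minus strand). Its peak, whose full sequence stands above, was 257 bp wide. In the direction of the gene it began 839 bp after the start, within the coding exon and away from the start itself. Its fold enrichment over the library's background was 1.99, at percentile 42.9 of the control list, with a −log10 q of 1.55. In Taf4-inactivated enteroids the nearest peak to that start was 33374 bp away. The next nearest peak to a member's start in control enteroids was 1506 bp upstream of Olfr849, just outside the 1 kb limit, with a fold at percentile 68.1. The nearest in Taf4-inactivated enteroids was 1892 bp upstream of Olfr872, at percentile 57.3.

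Most members were also far from any peak. The median distance from a member's start to the nearest peak was 48.2 kb in control and 98.0 kb in Taf4-inactivated enteroids, and the largest was 283.7 kb and 359.3 kb. Over all coding genes the median was 0 bp in both lists, since most starts lay inside a peak. The M71 receptor gene Olfr151 had no peak within 10 kb in either list, and its nearest peaks lay 18888 bp and 19452 bp from a start.

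Within the gene body plus 10 kb, 22 of 127 members (17.3%, 11.2 to 25.0%) had a peak in control enteroids, against 82.4% of all coding genes. In Taf4-inactivated enteroids 7 members (5.51%, 2.24 to 11.0%) had one, against 80.5%. Windows of neighbouring members overlap and some members shared a peak in control, which these intervals do not allow for. Among coding genes no longer than the longest member the shares were 75.7% and 73.2%. No member had more than 1 peak in either list. Olfr18, Olfr874 and Olfr986 had a peak in both lists, 19 members in control alone, 4 in the Taf4-inactivated list alone (Olfr58, Olfr855, Olfr872 and Olfr875), and 101 in neither.

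Counted once, 18 control and 7 Taf4-inactivated peaks touched the neighbourhoods. By peak midpoint the density was 7.38 peaks per Mb in control (exact Poisson 95% interval 4.38 to 11.7) and 2.46 in Taf4-inactivated enteroids (0.903 to 5.36), the latter from 6 peaks because the midpoint of the Olfr58 peak fell just outside. Over the autosomes and X the same lists had 34.3 and 27.0 peaks per Mb, and over chromosome 9 they had 40.3 and 31.2. The neighbourhoods therefore held 21.5% of the genome density in control and 9.11% in Taf4-inactivated enteroids. Peaks covered 0.294% and 0.123% of their bases, against 2.50% and 1.81% of the genome. The ratio of control to Taf4-inactivated density was 3.00 in the neighbourhoods (exact interval 1.14 to 9.23), which includes the 1.27 of the whole lists.

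The size of this ratio depended on the windows. With 50 kb on each side in place of 10 kb the densities were 7.86 and 4.76 peaks per Mb, from 33 control and 20 Taf4-inactivated peaks. In the parts of the 2 cluster spans that lie outside the neighbourhoods the counts were 10 control and 11 Taf4-inactivated peaks, or 6.02 and 6.62 per Mb, a ratio of 0.909 (0.346 to 2.36) whose interval includes the 1.27 of the whole lists and overlaps that of the neighbourhoods. Cluster 1 as a whole span had 14 and 8 peaks, and cluster 2 had 14 and 9. Within the neighbourhoods, cluster 1 had 9.04 peaks per Mb in control (3.64 to 18.6) and 3.88 in Taf4-inactivated enteroids (0.799 to 11.3), and cluster 2 had 6.61 (3.30 to 11.8) and 1.80 (0.372 to 5.27). The intervals of the 2 clusters overlapped in each list. In cluster 1, 8 and 4 members had a peak within 10 kb, and in cluster 2, 14 and 3 did.

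**Figure D1:**
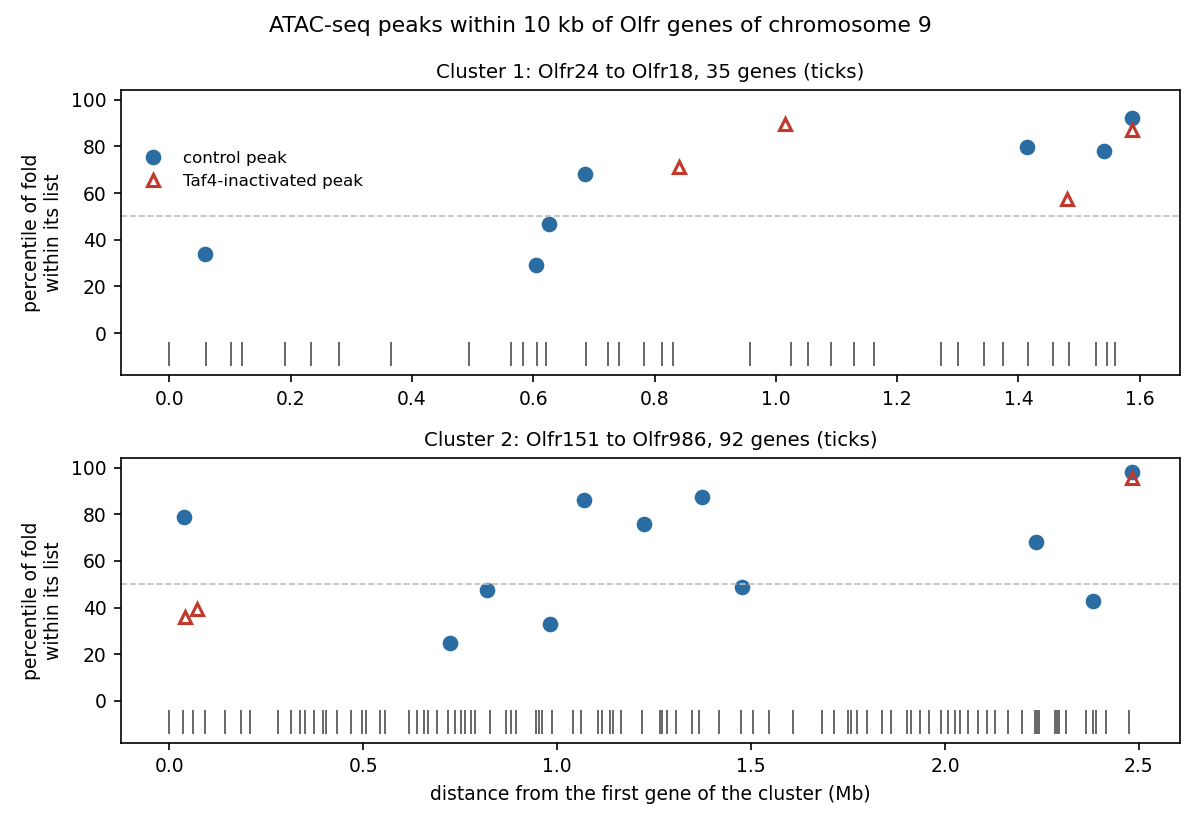
Peaks within 10 kb of the Olfr genes of chromosome 9 in cluster 1 (upper) and cluster 2 (lower), by distance from the first gene of the cluster in Mb (x axis) and percentile of fold within the peak's own list (y axis). Filled circles are control peaks, open triangles Taf4-inactivated peaks, ticks the left end of each gene, and the dashed line the median of a list. The 18 control and 7 Taf4-inactivated peaks lie between percentiles 25.0 and 98.3, and the highest pair in cluster 2 is the Zfp202 start.

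The map of both clusters shows long runs of genes with no peak at all. The largest stretch without a peak in either list ran from 39170709 to 39753785 in cluster 2, or 583 kb, and held 23 members from Olfr951 to Olfr974. In cluster 1 the largest ran from 18646844 to 19163901, or 517 kb, with 9 members from Olfr829 to Olfr845. The Taf4-inactivated list alone left 729 kb of cluster 2 free, with 28 members from Olfr876 to Olfr907, and 616 kb of cluster 1 with 12 members.

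The peaks that were present were not uniformly weak. Their median percentile of fold was 68.1 in control (25.0 to 98.3) and 71.1 in Taf4-inactivated enteroids (36.0 to 95.4), where 50 is the middle of a list. Their median −log10 q was 2.20 (1.26 to 10.003) and 3.69 (1.67 to 12.2). In control, 8 of 18 had a −log10 q below 2, against 50.8% of the list, and in Taf4-inactivated enteroids 2 of 7 did, against 36.0%. They were narrow, with a median width of 321 bp (200 to 967) in control and 393 bp (213 to 1068) in Taf4-inactivated enteroids, against 584 and 530 bp over the lists. Most lay between genes, 16 of 18 and 6 of 7.

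The strongest peak near a member belonged to another gene. Near Olfr986 (39994664 to 39995679, plus strand), the last gene of cluster 2, the control peak spanned 39999724 to 40000690 with a fold of 3.32, at percentile 98.3, and a −log10 q of 10.003. The Taf4-inactivated peak spanned 39999619 to 40000686 with a fold of 4.21, at percentile 95.4, and a −log10 q of 12.2. They overlapped by 963 bp and covered the start of Zfp202, which is not a member. This is the promoter printed last above. Without peaks at starts of other coding genes, 21 control and 6 Taf4-inactivated members kept a peak within 10 kb, a reading chosen after the data had been seen.

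The other peak that both lists placed in a neighbourhood lay before Olfr18 (20118336 to 20140538, minus strand), the last gene of cluster 1. The control peak spanned 20145486 to 20145874, 4948 bp upstream of the start, with a fold of 2.70 at percentile 92.4 and a −log10 q of 4.95. The Taf4-inactivated peak spanned 20145479 to 20145871, 4941 bp upstream, with a fold of 3.50 at percentile 87.2 and a −log10 q of 6.62. The 2 overlapped by 386 bp, nearly their whole width. Of the 50-base words in these peaks, 11.1% and 10.9% occurred once in the assembly, and the median word occurred 48 and 47 times. It was the only neighbourhood peak in either list with fewer than 50% unique words, a property of 0.838% of the control list and 1.08% of the Taf4-inactivated list.

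The remaining named peaks were present in 1 list within 10 kb. Among the top 5 control peaks by fold, the other 3 lay 6875 bp upstream of Olfr938 (38893276 to 38893671, percentile 87.3), on the downstream side of Olfr921 at 8474 bp from its start (38589147 to 38589560, percentile 86.0) and 3101 bp from the start of Olfr870 on its downstream side (19972575 to 19972912, percentile 79.7). None of these 3 overlapped a Taf4-inactivated peak. Of the 5 in the Taf4-inactivated list, the other 3 lay before Olfr58, beyond Olfr855 and before Olfr872. The Olfr58 peak (19574315 to 19574898) had a fold of 3.65 at percentile 89.5 and a −log10 q of 8.05, and it overlapped by 279 bp a control peak that began 10079 bp from the same start and so lay just outside the 10 kb window. The Olfr855 peak (19399223 to 19399469) had a fold of 2.84 at percentile 71.1, and the Olfr872 peak (20039499 to 20039714) a fold of 2.55 at percentile 57.3, and neither overlapped a control peak.

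Few peaks of the neighbourhoods were shared between the lists. With 1 bp of overlap counted as sharing, 2 of the 18 control peaks (11.1%, 1.38 to 34.7%) had a partner in the Taf4-inactivated list, against 47.3% of the control list. Of the 7 Taf4-inactivated peaks 3 (42.9%, 9.90 to 81.6%) overlapped a control peak, against 60.2%. With 7 Taf4-inactivated peaks against 18 control peaks, the share of the control peaks is not independent of the Taf4-inactivated count. The part of that count was not tested. Beyond Olfr874, a control peak (37557534 to 37558056, percentile 78.8) and a Taf4-inactivated peak (37558098 to 37558310, percentile 36.0) were neighbours without touching.

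**Figure D2:**
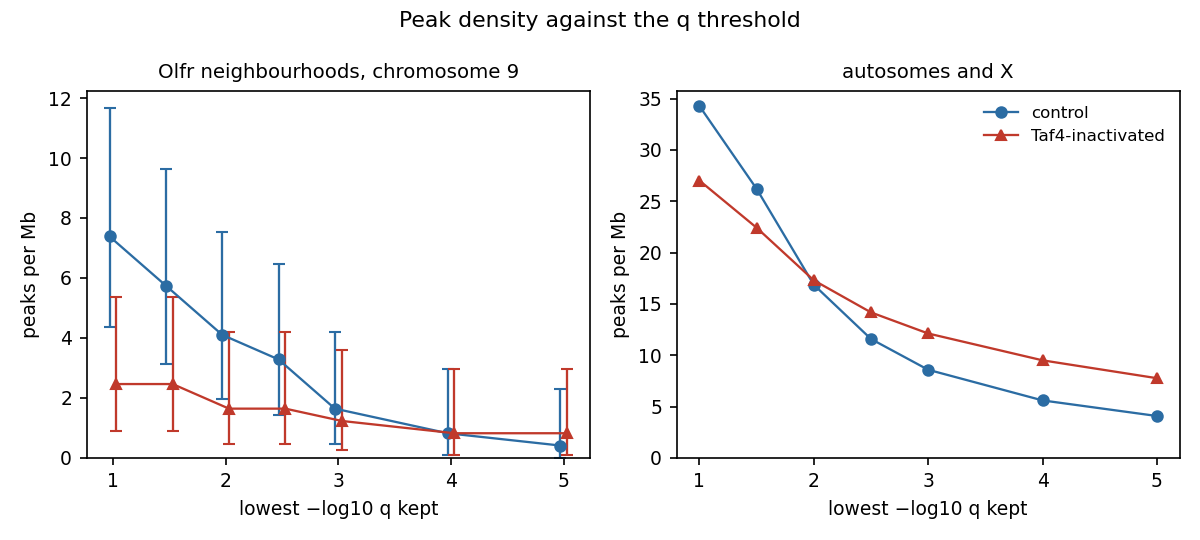
Peaks per Mb (y axis) kept at each lowest −log10 q (x axis), in the neighbourhoods of the chromosome 9 Olfr genes (left, bars are exact Poisson 95% intervals) and over the autosomes and X (right), on different y scales. In the neighbourhoods the control density falls from 7.38 to 0.410 and the Taf4-inactivated density from 2.46 to 0.820 per Mb between a −log10 q of 1 and 5, with overlapping bars at every threshold.

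The difference between the lists in these neighbourhoods also depended on the threshold. At a −log10 q of at least 2, where the whole lists were of nearly equal size (44495 control and 45640 Taf4-inactivated peaks), the neighbourhoods held 10 control and 4 Taf4-inactivated peaks, 24.3% and 9.49% of the genome density. At 3 they held 4 and 3, at 4 they held 2 in each list, and at 5 they held 1 and 2. As shares of the genome density these were 19.1% in control and 10.2% in Taf4-inactivated enteroids at 3, 14.7% and 8.64% at 4, and 10.1% and 10.6% at 5. The plot of density against threshold shows the 2 curves meeting.

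Other chemosensory receptor genes were used to see whether the same holds beyond chromosome 9. These were the 960 Olfr genes of 16 other chromosomes and the vomeronasal receptor genes, which detect pheromones, with 203 in the Vmn1r family and 117 in Vmn2r. Start site peaks were found for 49 of the other Olfr genes in control (5.10%, 3.80 to 6.69%) and 29 in Taf4-inactivated enteroids (3.02%, 2.03 to 4.31%). Neither vomeronasal family had 1 in either list. For a fair count, peaks within 1 kb of any coding gene's start were set aside and only distal ones compared. The chromosome 9 Olfr neighbourhoods held 6.56 distal peaks per Mb in control (3.75 to 10.7) and 2.05 in Taf4-inactivated enteroids (0.666 to 4.79), which was 23.8% and 9.78% of the distal density of the genome. The Olfr genes of other chromosomes had 10.2 (8.74 to 11.8) and 5.28 (4.24 to 6.49), Vmn1r 6.82 (4.60 to 9.73) and 3.86 (2.25 to 6.19), and Vmn2r 4.12 (2.58 to 6.24) and 2.44 (1.30 to 4.17). The intervals of the chromosome 9 genes overlapped those of all 3 receptor groups in both lists, and lay below those of the other coding genes of chromosome 9, at 39.6 and 30.4.

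**Figure D3:**
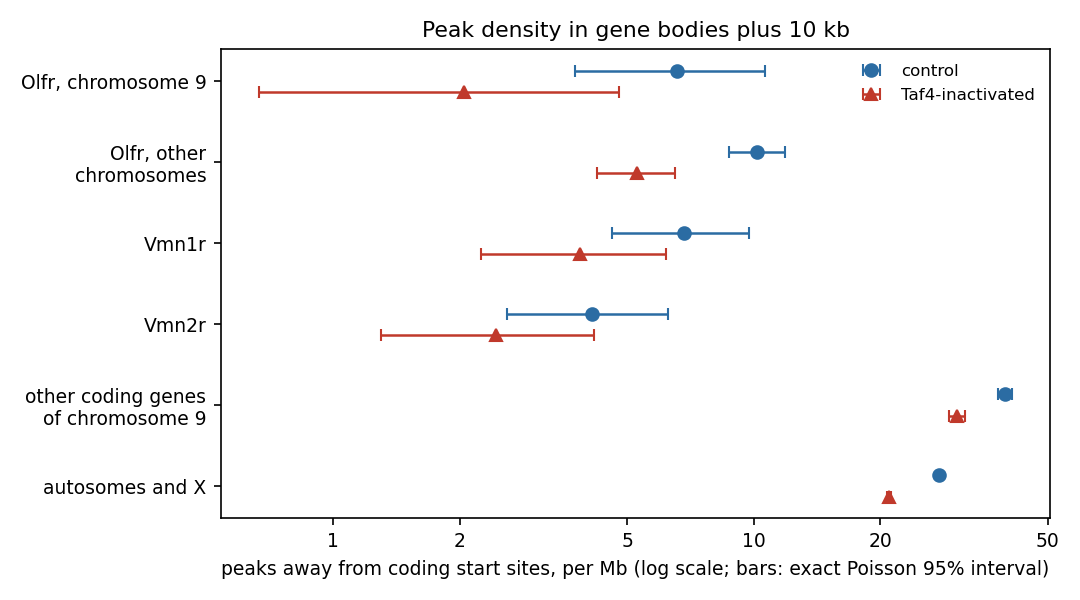
Distal peaks per Mb (x axis, log scale) in gene bodies plus 10 kb for each gene group (y axis), with autosomes and X as a whole at the bottom. Circles are control, triangles Taf4-inactivated, and bars exact Poisson 95% intervals. The 4 receptor groups sit between 2.05 and 10.2 per Mb and the 2 comparison groups between 21.0 and 39.6.

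Every receptor group had fewer neighbourhood peaks in the Taf4-inactivated list. The ratio of control to Taf4-inactivated density was 3.00 for the chromosome 9 Olfr genes (1.14 to 9.23), 1.83 for the other Olfr genes (1.47 to 2.30), 1.76 for Vmn1r (0.942 to 3.41) and 1.64 for Vmn2r (0.810 to 3.45). The interval of the other Olfr genes lay above the 1.27 of the whole lists, and those of the other 3 groups included it. The share of control peaks with a partner in the Taf4-inactivated list was 30.9% (25.0 to 37.3%) for the other Olfr genes. It was 36.7% (19.9 to 56.1%) for Vmn1r and 21.7% (7.46 to 43.7%) for Vmn2r, against 11.1% (1.38 to 34.7%) for the chromosome 9 genes. Of the 12 chromosomes with at least 20 Olfr genes, 11 had a lower distal density in Taf4-inactivated enteroids, and chromosome 6 had 2 peaks in each list. The autosomes and X as a whole also had a lower one, at 21.0 per Mb against 27.6 in control. The ratio of control to Taf4-inactivated distal peaks ran from 1 on chromosome 6 and 1.08 on chromosome 7 to 5 on chromosome 19. Chromosome 9 had the third lowest distal density of the 12 in control and the second lowest in Taf4-inactivated enteroids. The range ran from 3.91 to 41.3 per Mb in control and from 1.65 to 22.7 in Taf4-inactivated enteroids, with chromosome 4 highest in both. Library depth, as solved from fold and p, also differed between the 2 libraries, by a ratio of 1.65, and its part in these density ratios was not tested.

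Genes of other kinds inside and beside the clusters gave a local comparison. Between the members lie 6 coding genes with other symbols (Zfp317, Vwa5a, AW551984, 1700001J11Rik, Tmem225 and Gm4893). None had a start site peak in control enteroids, and Vwa5a had 1 in Taf4-inactivated enteroids (38526476 to 38526732, percentile 82.4, −log10 q of 5.58). Of the 4 coding genes flanking the clusters, Zfp560 had one at its start in both lists (percentiles 87.5 and 88.3), as did Zfp202, while Panx3 had one in the Taf4-inactivated list alone (percentile 33.5), and Muc16 had none.

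The receptors were also set beside 29 genes that olfactory neurons use to traffic, read out and choose receptors. Of these, 23 had a start site peak in control and 21 in Taf4-inactivated enteroids, where the background over all coding genes was 68.4% and 65.5%. Among the 4 trafficking genes, Ric8b and Reep1 had one in both lists, and the receptor transporters Rtp1 and Rtp2 had one in control alone, at −log10 q values of 1.35 and 1.40. Among the 13 transduction genes 8 had one in each list. Cnga2, Cnga4 and Cngb1, the subunits of the olfactory cyclic nucleotide-gated cation channel, had none, nor had Omp and Stoml3. Among the 12 genes of receptor choice and neuron identity 11 had one in each list, including Kdm1a (percentiles 87.8 and 92.0), Lbr (99.3 in both) and Lhx2 (81.9 and 79.3), and Ebf2 had none. Many of these 29 genes have broader roles in other tissues.

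Base composition separated the members, like the Olfr genes of other chromosomes, from most coding genes. In the 300 bp from 250 before to 50 after the annotated start, the median GC content of members was 34.0% (25.0 to 47.3%) against 55.0% for all coding genes. Their median ratio of observed to expected CpG was 0.105 and the highest 0.595, 50 members had no CpG at all, and none reached the 0.6 that 45.2% of all coding genes reached. The TATA box letters occurred in 53 members (41.7%) against 13.4% of all coding genes, and the homeodomain letters in 28 (22.0%) against 4.86%. The Ebf letters occurred in none, against 0.894%, and the CTCF letters in none, against 2.56%. For the 71 members whose model begins at the coding start, this window may miss the true promoter. In the other 56 members the Ebf and CTCF letters also occurred in none. The AP-1 letters occurred in 14 (11.0%, against 6.93%) and the GATA letters in 6 (4.72%, against 2.74%). The 960 Olfr genes of other chromosomes were similar, with a median GC content of 35.3% and a median CpG ratio of 0.111. Among them the TATA box letters occurred in 40.6%, the homeodomain letters in 18.6% and the Ebf letters in 0.625%. The CTCF letters occurred in 0.208% of them, the AP-1 letters in 13.5% and the GATA letters in 4.69%. The part of the high A and T content in these counts was not tested.

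**Figure D4:**
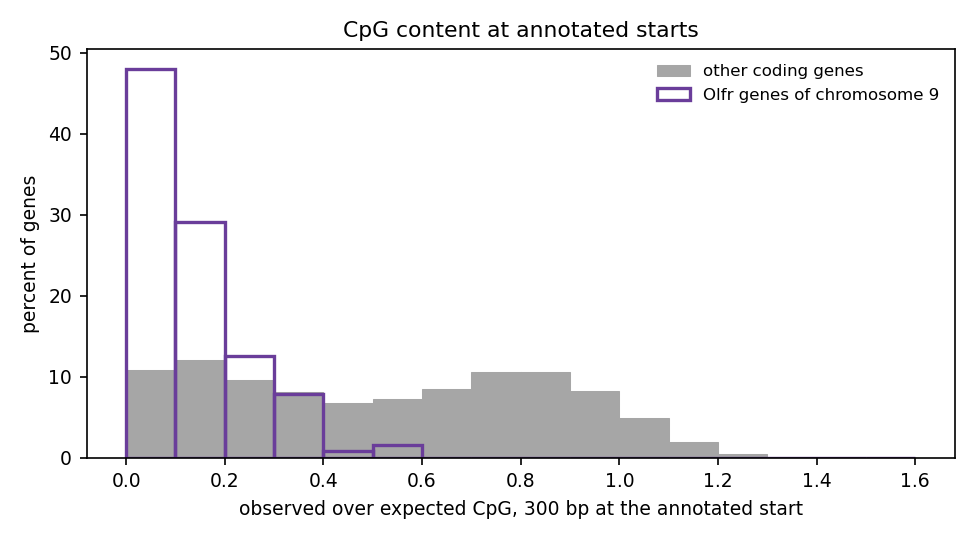
Percent of genes (y axis) by ratio of observed to expected CpG in 300 bp at the annotated start (x axis), for the 127 Olfr genes of chromosome 9 (outline) and other coding genes (filled). All Olfr genes lie below 0.6, where 98 of the 127 are below 0.2.

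Coding genes of other families in the same ranges of the CpG ratio had start site peaks more often, though they still differed in composition. Of the 4350 coding genes outside the Olfr family with a ratio below 0.2, 31.3% had a start site peak in control and 26.4% in Taf4-inactivated enteroids, while of the 98 members in that range 1 and 0 did. The median GC content of those 4350 genes was 47.0% with 2 CpGs per window, against 34.0% and 1 CpG for all members, and the part of this difference was not tested. Between 0.2 and 0.4 the shares were 51.7% and 45.9%, and 0 of 26 members had one in either list. The remaining 3 members lay between 0.4 and 0.6, where the shares of other genes were 74.7% and 71.8%, and had none.

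The peaks in the neighbourhoods were richer in GC than the DNA around them and close to other peaks of the same lists. Their GC content ran from 41.1 to 65.8% in control (median 50.7%) and from 41.7 to 63.6% in Taf4-inactivated enteroids (median 52.3%), and all 18 and all 7 lay above the 37.1% of the neighbourhoods as a whole. In 300 bp at the peak centre their median was 51.8% and 50.7%, against 53.3% and 52.3% over the whole lists. In these windows 2 of 18 control peaks held the TATA letters (8.11% of all control peaks) and 2 the AP-1 letters (9.28%). Of the 7 Taf4-inactivated peaks 1 held the TATA letters (9.61%) and 1 the GATA letters (4.78%). The GATA letters were in none of the control peaks (3.67% of the list) and the AP-1 letters in none of the Taf4-inactivated peaks (12.1%). The homeodomain, Ebf and CTCF letters were in none of either list's peaks, against 3.09%, 1.15% and 3.06% of the control list and 3.74%, 1.08% and 4.39% of the Taf4-inactivated list. At such shares, 18 or 7 peaks are too few to tell none from the share of the list.

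Only reads that mapped to a single place were kept by the authors, and near-identical copies limit where such reads can be placed. The percent of 50-base words that occur once in the assembly was used as a measure of that limit. Within 1 kb of the start, members had between 67.7 and 100% unique words, with a median of 97.3%, and 79 of 127 had at least 95%. In the gene body plus 10 kb the lowest was Olfr834 at 53.1% and the highest Olfr965 at 99.0%, with a median of 91.9%, and neither of these 2 had a peak in either list. Members with a peak within 10 kb had a median of 89.6% and members without one 92.3%. The neighbourhoods as a whole had 88.0% unique words against 88.6% over the autosomes and X. The vomeronasal families were less unique, at 61.4% for Vmn1r and 65.4% for Vmn2r.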

How the data were processed

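The data were 2 lists of ATAC-seq peaks, 1 for each genotype named in the labels. According to the study's methods, the authors aligned reads to mm9 with Bowtie, kept uniquely mapping reads, and called broad peaks per library with MACS2 after extension to 200 bp. The submitters' processing notes name bcl2fastq 2.17.1.14, Bowtie 1.0.0 and MACS2 2.1.1. The handling of duplicate and mitochondrial reads is not given in the sources used here. The deposited score of a peak follows its −log10 q. The deposited fold is enrichment over the background of the same library, as the authors' caller gave it, and was only ranked within a list. The deposited −log10 p and −log10 q were made by the authors' caller for each peak and were used to filter and describe peaks.

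Positions were turned into 1-based coordinates and joined to the GENCODE annotation of NCBIM37 (mm9) by an overlap of at least 1 bp. Start site peaks lay within 1 kb of any annotated start of a gene. Densities count peak midpoints per Mb with exact Poisson intervals. The ratio of 2 densities has an exact interval conditional on the summed count. Read counts were not used here, so depth is known only as a ratio, solved from fold and p over the narrowest 10% of peaks. Unique words were counted over 50 bases, at every position in the neighbourhoods, every 10 bases within the peaks of whole lists and every 100 elsewhere, with copies counted to at most 250. Overlap, merging, word counts and depth were tested on simulated data. Python 3.11.15, numpy 2.4.6, pandas 2.3.3, scipy 1.17.1, numba 0.67.0, pysam 0.24.0 and matplotlib 3.10.9 were used.

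The members, the gene lists and the tests were chosen with earlier results of these data known. The rule named every member with a start site peak, the members with most peaks in each list, the 5 neighbourhood peaks of highest fold in each list, the members of the largest peak-free stretch, and the members with the lowest and highest share of unique words. Olfr151, Olfr849, Olfr874 and Olfr875, and the CTCF letters, were added after values had been seen. Alternatives changed the start site distance, the flank, the q threshold, the width, the overlap, the ranking value, the top list of 40000 peaks and the member set.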

Additional observations from a re-analysis of the deposited data

How the results depend on the processing

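Of 64 values recomputed under alternatives, 1 changed sign, 20 moved and 43 stayed within the tolerance. That tolerance was 1.5 times for counts of members, the 95% interval for densities, shares and the density difference, and the middle 50% of the peaks for the median percentile. It is wide where peaks are few, and it took in a Taf4-inactivated density of 1.23 to 4.76 per Mb, the latter with a flank of 50 kb against 7.86 in control, and a share of control peaks with a partner of up to 20.0%. The control count of 1 member with a start site peak became 0 at 500 bp, 15 at 5 kb, and 0 at a −log10 q of at least 2, at 5, and among the 40000 peaks of highest fold. The Taf4-inactivated count of 0 became 4 at 5 kb. The control count of 22 members with a peak within 10 kb became 1 with no flank, 66 with a flank of 50 kb, 13 at a −log10 q of at least 2, 1 at 5, and 13 in the top list. The Taf4-inactivated count of 7 became 0 with no flank, 37 with 50 kb and 3 under the stricter q threshold of 5. Shares over all coding genes were computed only at 1 kb and 10 kb with all peaks. The member counts at other settings therefore have no such share to be read against. The control density of 7.38 peaks per Mb became 4.10 at a −log10 q of at least 2, 0.410 at 5, 4.10 in the top list and 4.10 for peaks of at least 300 bp. The Taf4-inactivated density of 2.46 became 0.820 once a −log10 q of 5 was required. At that threshold the share of control peaks with a partner became 100%, from 1 peak. The density difference, control minus Taf4-inactivated, was 4.92 per Mb and became -0.410 when the −log10 q had to reach 5, and ran from 2.46 to 5.60 under the other settings. At 5 only 1 control and 2 Taf4-inactivated peaks are left in the neighbourhoods, while the whole lists held 10757 control and 20474 Taf4-inactivated peaks. As shares of the genome density, the neighbourhoods held 10.1% in control and 10.6% in Taf4-inactivated enteroids at that threshold. For the other changes, the windows or thresholds themselves let in more or fewer peaks. Leaving out peaks at starts of other coding genes, an alternative chosen after seeing the data, gave 6.97 and 2.05 per Mb. No paired analysis was possible because each genotype had 1 library and no repeat to leave out. Counting error over few peaks and the unequal depth of the libraries limit every comparison between genotypes.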
